A study of Homo sapiens with 15 samples.

Results

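The genes described here are 36 genes that encode enzymes, membrane proteins, proton pump subunits and transcription factors of the lysosome, measured by RNA-seq in A549 cells. They were chosen by gene symbol from a fixed list, a rule that uses no measured value. The list was drawn up with earlier results of these data known, so it cannot be called independent of them. All 36 were found among the 26475 genes of the deposited table and all 36 passed the filter on low counts, which left 12795 genes to test. They comprise 8 cathepsins, 12 other hydrolases, 2 hydrolase cofactors, 6 membrane proteins, 6 proton pump subunits and 2 transcription factors.

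A549 is a cell line of human lung adenocarcinoma with epithelial character, labelled as resembling the alveolar type II cell. The study put 5 groups of 3 libraries side by side. Cells of 4 groups received interleukin-4 (IL4), a cytokine that drives allergic inflammation, at 10 ng/ml, and RNA was taken after 48 h. To the IL4 was added, in 1 group each, a substance named only as Compound A, a pooled siRNA against ALOX15 at 1 uM, or a pooled control siRNA, while another group had IL4 alone and the last had no treatment. ALOX15 encodes a lipoxygenase that oxidises polyunsaturated fatty acids. What Compound A is, its dose and the dose of the control siRNA are not given in the sources used here, and neither is any vehicle or mock transfection. The labels do not tell whether replicate libraries stem from separate cultures. The p-values therefore measure only how far these libraries spread, which may be technical.

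The lysosome is the acidic organelle in which proteins, lipids and glycans are broken down. A proton pump, the V-ATPase, acidifies it, hydrolases such as the cathepsins do the cutting, and heavily glycosylated membrane proteins line its wall. TFEB and TFE3 are related transcription factors that bind a short element, the CLEAR motif built around CACGTG, near the start of many lysosomal genes, and they are controlled largely by where they sit in the cell rather than by their mRNA level. In lung epithelium, lysosomes also receive surfactant proteins and lipids for breakdown.

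The deposited values are estimated read counts per gene, and their total per library ran from 6407936 to 11031246 with a median of 7442934. Levels are given as counts per 1e+06 counts (CPM) after scaling between libraries. They compare 1 gene across libraries and not genes of different length. ALOX15 had 0.136 to 0.314 CPM with its siRNA, against 3.28 to 3.91 CPM with control siRNA. It had 1.81 to 2.59 CPM with Compound A, 4.72 to 6.00 CPM with IL4 alone and 0 to 0.299 CPM in untreated cells. IL4 replicate 1 lay away from the other IL4 libraries on a principal component and in a trend on transcript GC content, described near the end, and values without it are given beside the results it moves most. Of 11 macrophage and monocyte marker genes, 6 had no count in any library, PTPRC, CSF1R and CD163 among them; 3 counts, the limit that a count of 0 allows, correspond to 0.269 to 0.471 CPM. The 9 epithelial genes, keratins among them, summed to 5210 to 10600 CPM, with the surfactant gene SFTPB at 0 in all libraries. In bulk RNA, fewer cells of a type and less RNA per cell cannot be told apart.

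IL4 changed a few of the 36 genes and left most without a call. With IL4 alone, 8 of the 36 (22.2%) passed edgeR's quasi-likelihood test at an adjusted p under 0.05 against untreated cells, 6 higher and 2 lower. That share is near the background, since 22.9% of all genes tested passed, 11.2% higher and 11.6% lower. With IL4 and control siRNA, 6 of 36 (16.7%) passed against the same untreated libraries, 4 higher and 2 lower, where 19.3% of all genes tested passed, 9.93% higher and 9.36% lower. Without control siRNA replicate 2 that count was 3, and the share of all genes that passed in that fit is not given here. When only the libraries of both groups were fitted, 4 members passed for IL4 alone against untreated, CTSL, CTSS, CD68 and GLA. The median log2 change of the 36 was 0.061 with IL4 alone, where all genes tested had -0.0217, and 0.0316 with control siRNA added, where all genes had -0.0171. Both comparisons use the same 3 untreated libraries, so they are not independent of each other.

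Compound A, added to IL4, moved a small number of members in both directions. Against IL4 alone, 6 of 36 (16.7%) passed, 2 higher and 4 lower, and 14.4% of all genes tested passed, 6.35% higher and 8.07% lower. The members' median log2 change was -0.106, against 0.00188 for all genes tested. Without IL4 replicate 1 the median was -0.0491, against 0.00348 for all genes, and with a GC correction of each library it was -0.0182, against 0.0182. The count was 3 without Compound A replicate 1, 3 without Compound A replicate 2, 10 without IL4 replicate 3 and 7 without IL4 replicate 1. The number of all genes called also varied widely between such fits. Its range is given near the end, so these counts do not set the members apart from other genes. When only the libraries of those groups were fitted, CTSL and CD68 were the 2 members that passed. Against IL4 with control siRNA, groups that differ by the siRNA as well, 3 of 36 (8.33%) passed, 2 higher and 1 lower, where 5.28% of all genes tested passed, 1.86% higher and 3.42% lower. That count was 1 without any one of the 6 libraries compared, leaving CTSL as the member called each time. Fewer of all genes were called in those fits as well, with the range given near the end.

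The ALOX15 siRNA changed none of the 36 genes past the threshold. Against control siRNA, 0 of 36 passed edgeR's test, where 0.696% of all genes tested passed, 0.313% higher and 0.383% lower. DESeq2 also called 0 members, and 4 had an unadjusted p under 0.05 in edgeR. The 95% intervals of the log2 changes of 35 members, TFEB left aside for its few counts, lay within -0.749 for MCOLN1 and 0.565 for CD68. Control siRNA against IL4 alone likewise gave 0 of 36 by edgeR, with 0 by DESeq2 and 2 with an unadjusted p under 0.05. Of all genes tested 0% passed edgeR's test there, with 2 genes called by DESeq2 and 4.91% at an unadjusted p under 0.05.

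The effect of Compound A and that of the ALOX15 siRNA were also compared directly, as the change with Compound A relative to IL4 minus the change with ALOX15 siRNA relative to control siRNA. This difference passed for 3 of 36 members (8.33%), CTSL upward and CD63 and CD68 downward, where 5.14% of all genes tested passed, 1.94% upward and 3.2% downward. Without IL4 replicate 3 the count was 6, and the number of all genes called varied between such fits as well, with the range given near the end. Over all 7 comparisons, 10 members were called at least once in edgeR's joint fit and 26 were not. Of these 26, 12 passed in some comparison under at least 1 alternative processing, and 14 under none.

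**Figure D1:**
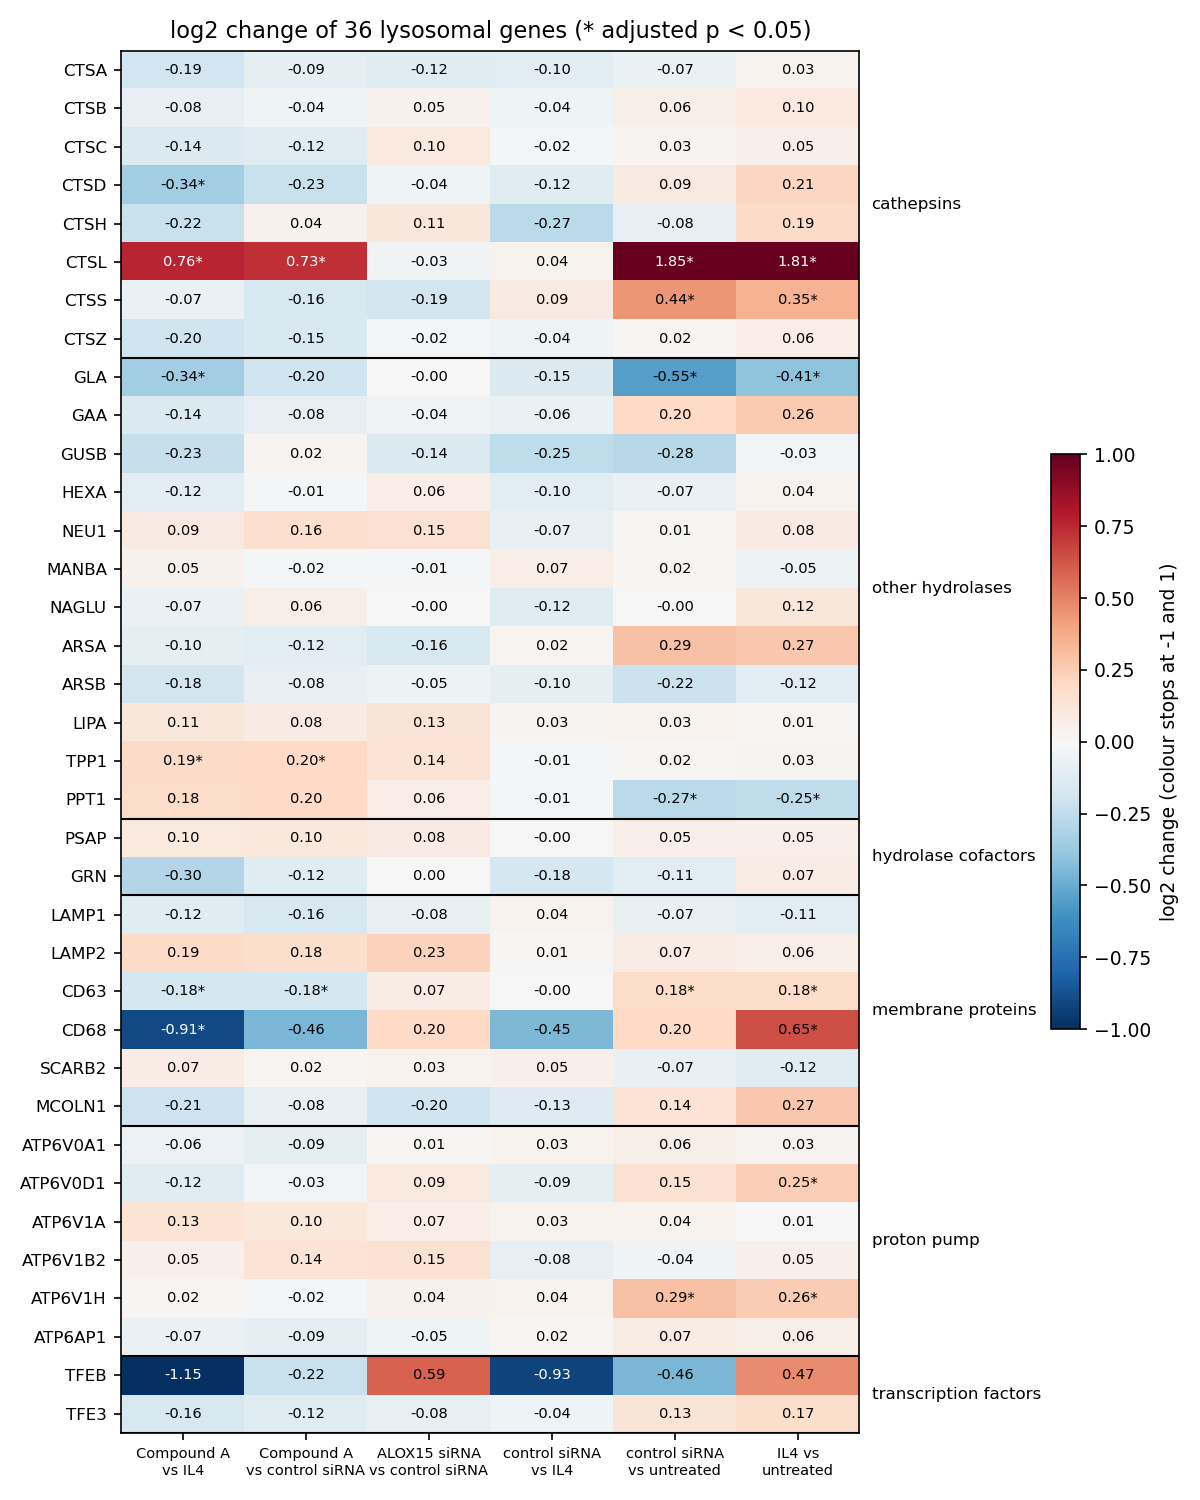
The log2 change of each of the 36 genes (rows, by role) in 6 comparisons (columns), with an asterisk where edgeR's adjusted p was under 0.05. The CTSL row holds the deepest red cells, 1.81 and 1.85 for the IL4 comparisons and 0.76 and 0.73 for Compound A, and neither of the columns for ALOX15 siRNA and for control siRNA against IL4 has an asterisk; colours stop at -1 and 1.

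CTSL was the member that moved most with IL4 against untreated cells, both with and without control siRNA. With Compound A against IL4, CD68 (log2 -0.91) and TFEB (-1.15, not called) moved further than CTSL (0.76). They also did in the difference of effects (-1.11 and -1.74, against 0.80). CTSL encodes cathepsin L, a cysteine endopeptidase of the lysosome that also acts in antigen processing and in the cleavage of viral entry proteins. The gene lies on chromosome 9 at 87726119 to 87731469 of GRCh38.p14. CTSL had 3263, 3508 and 3460 CPM with Compound A. It had 2029, 2038 and 1971 CPM with ALOX15 siRNA and 2071, 2099 and 2006 CPM with control siRNA. It had 1946, 2034 and 2047 CPM with IL4 alone and 566.2, 582.7 and 568.6 CPM in untreated cells. The untreated libraries were thus lowest, the Compound A libraries highest, and the libraries of the other 3 IL4 groups overlapped one another in between.

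IL4 alone raised CTSL 3.51-fold over untreated cells, to a mean of 2009 ± 55.2 CPM with IL4 against 572.5 ± 8.94 CPM untreated (SD, n = 3 each; log2 1.81, SE 0.0442, edgeR adjusted p = 1.15e-16). With control siRNA the rise over untreated cells was 3.60-fold, to a mean of 2059 ± 48.0 CPM (log2 1.85, SE 0.0443, adjusted p = 8.09e-17). Compound A took it to 3411 ± 130 CPM, 1.70-fold above IL4 alone (log2 0.76, SE 0.0428, adjusted p = 1.23e-09). Against control siRNA the rise with Compound A was 1.66-fold (log2 0.73, SE 0.0428, adjusted p = 2.96e-09). The ALOX15 siRNA group averaged 2013 ± 36.2 CPM, a log2 change of -0.03 from control siRNA (95% interval -0.122 to 0.0565, adjusted p = 0.902). The Compound A effect exceeded the ALOX15 siRNA effect by 0.80 on the log2 scale (95% interval 0.67 to 0.922, adjusted p = 3.25e-07). Ranked by p among the 12795 genes tested, CTSL stood at 1 in all 4 comparisons in which it rose and in this difference. In the ALOX15 siRNA comparison it stood at 6446. No alternative processing ended any of these 5 calls.

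**Figure D2:**
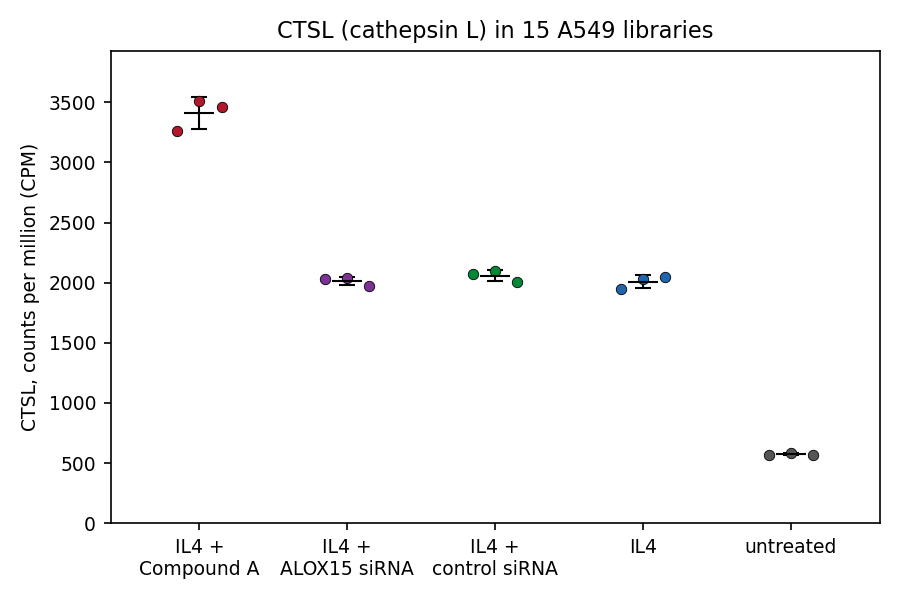
CTSL level in CPM (vertical axis) in the 15 libraries by group; points are libraries, bars the mean and SD of 3. The 3 Compound A libraries sit between 3263 and 3508, the other 9 IL4-treated libraries between 1946 and 2099, and the untreated ones between 566.2 and 582.7.

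The 250 bases before the CTSL start are shown because CTSL moved most with IL4. The region's Sp1-type GC boxes (GGGCGG on either strand) and CCAAT element are in capitals. The sequence is chr9:87725869-87726118 on the plus strand, from RefSeq promoter windows of GRCh38.p14.
CTSL: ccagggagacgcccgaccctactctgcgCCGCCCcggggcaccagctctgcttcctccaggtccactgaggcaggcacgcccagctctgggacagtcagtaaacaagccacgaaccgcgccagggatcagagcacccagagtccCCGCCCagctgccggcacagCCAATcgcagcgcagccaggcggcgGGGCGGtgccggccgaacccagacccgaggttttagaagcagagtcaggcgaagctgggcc
Neither CACGTG nor the palindrome that STAT factors can bind, TTC and GAA with 4 bases between them, occurs in the CTSL window of 250 bases before to 50 after the start. Of all gene symbols with a window, 48.3% hold GGGCGG and 39.7% hold CCAAT. A match or its absence describes these letters only.

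CTSS was the other cathepsin that rose with IL4. CTSS encodes cathepsin S, a protease known from antigen-presenting cells, where it trims the invariant chain of MHC class II (chromosome 1, 150730188 to 150765778). It had 33.14, 32.38 and 32.39 CPM with control siRNA and 29.47, 30.15 and 32.25 CPM with IL4 alone, against 23.3, 25.24 and 23.61 CPM untreated. All 6 libraries of those 2 IL4 groups lay above all 3 untreated ones. The rise was 1.27-fold with IL4 alone (log2 0.35, SE 0.0833, adjusted p = 0.00424) and 1.36-fold with control siRNA (log2 0.44, SE 0.0837, adjusted p = 0.000593). CTSS had 28.12, 30.15 and 29.31 CPM with Compound A and 27.23, 30.79 and 28.18 CPM with ALOX15 siRNA. Compound A gave a log2 change of -0.07 from IL4 alone (95% interval -0.240 to 0.103) and ALOX15 siRNA one of -0.19 from control siRNA (95% interval -0.362 to -0.0113, adjusted p = 0.51), and neither passed.

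CTSD, the aspartic protease cathepsin D (chromosome 11, 1752755 to 1763927), did not pass with IL4 against untreated (0.21, adjusted p = 0.0969) but was lower with Compound A. The first comparison passed without IL4 replicate 2 or 3 (adjusted p = 0.0372 and 0.0134). Without IL4 replicate 1 its log2 change was 0.0498 (adjusted p = 0.582), and with a GC correction of each library 0.00977 (adjusted p = 0.894). CTSD had 394.2, 416.5 and 408.4 CPM with Compound A, against 625.1, 472.7 and 450.2 CPM with IL4 alone. Every Compound A library was below every IL4 library, and IL4 replicate 1 was far above its mates. CTSD fell by 0.34 on the log2 scale with Compound A (SE 0.0894, adjusted p = 0.016). Without IL4 replicate 1 the change was -0.18 (adjusted p = 0.0279). The call was lost without Compound A replicate 1, 2 or 3 (adjusted p = 0.0504 to 0.0577) and after a GC correction of each library (-0.12, adjusted p = 0.0616). Against control siRNA, with 494, 491.5 and 440.4 CPM, the change with Compound A was -0.23 and did not pass (adjusted p = 0.166), except when only the libraries of both groups were fitted (adjusted p = 0.00166).

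The remaining cathepsins CTSA, CTSB, CTSC, CTSH and CTSZ were called in none of the 7 comparisons by edgeR's joint fit. Their log2 changes with Compound A against IL4 ran from -0.22 for CTSH to -0.08 for CTSB, and CTSH had -0.12 without IL4 replicate 1. CTSZ passed there without IL4 replicate 2 (-0.28, adjusted p = 0.0336). Its change was -0.072 without IL4 replicate 1 (adjusted p = 0.554) and -0.053 with the GC correction (adjusted p = 0.578). CTSC, the dipeptidyl peptidase that activates granule serine proteases, passed downward there once IL4 replicate 1 was left out (-0.20, adjusted p = 0.0272) and with the GC correction (-0.22, adjusted p = 0.00281).

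Among the 12 other hydrolases, 2 fell with IL4 alone by edgeR's test. GAA, the acid alpha-glucosidase that is deficient in Pompe disease, had a log2 change of 0.26 there that did not pass. DESeq2 called it higher (0.28, adjusted p = 0.0486). In edgeR the GAA change was 0.11 without IL4 replicate 1 (adjusted p = 0.326) and 0.042 with the GC correction (adjusted p = 0.62). GLA, the alpha-galactosidase A that is deficient in Fabry disease (chromosome X, 101397803 to 101407925), had 67.16, 59.04 and 65.36 CPM with control siRNA and 76.68, 73.54 and 62.16 CPM with IL4 alone, against 100.5, 92.68 and 87.42 CPM untreated. The IL4 libraries of both groups lay below every untreated library. GLA fell by 0.41 on the log2 scale with IL4 alone (SE 0.0891, adjusted p = 0.00211) and by 0.55 with control siRNA (SE 0.0906, adjusted p = 0.000124). With Compound A it had 59.18, 56.59 and 51.06 CPM, all 3 below the IL4 libraries. That fall of 0.34 from IL4 alone passed (SE 0.0927, adjusted p = 0.0178), but not without Compound A replicate 2 or 3 (adjusted p = 0.0568 and 0.0864). Against control siRNA the change was -0.20 (adjusted p = 0.249). With ALOX15 siRNA, GLA had 68.08, 66.92 and 56.49 CPM and overlapped the control siRNA libraries.

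PPT1, the palmitoyl-protein thioesterase whose loss causes an infantile neuronal ceroid lipofuscinosis (chromosome 1, 40071461 to 40097252), also fell with IL4. PPT1 had 53.26, 46.33 and 49.66 CPM with control siRNA and 48.85, 53.09 and 48.84 CPM with IL4 alone, against 61.58, 61.6 and 56.04 CPM untreated. The groups did not overlap, and the falls were 0.25 with IL4 alone (SE 0.0741, adjusted p = 0.0176) and 0.27 with control siRNA (SE 0.075, adjusted p = 0.0151). Leaving out untreated replicate 1 or 2 ended both calls, as did control siRNA replicate 2 or 3 for the second (adjusted p = 0.0582 to 0.111 over these). With Compound A, PPT1 had 56.94, 56.91 and 57.26 CPM, above all libraries with IL4 alone, with a change of 0.18 that did not pass (adjusted p = 0.104).

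TPP1, the tripeptidyl peptidase of another neuronal ceroid lipofuscinosis (chromosome 11, 6612768 to 6619422), was the hydrolase called higher with Compound A. TPP1 had 140.5, 150.9 and 135.7 CPM with Compound A, against 125.5, 122.9 and 123.2 CPM with control siRNA and 127, 122.8 and 125.4 CPM with IL4 alone. Each Compound A library was above all 6 of these. The rises were 0.19 against IL4 (SE 0.0576, adjusted p = 0.0343) and 0.20 against control siRNA (SE 0.0579, adjusted p = 0.0455). Both were close to the threshold: the first was lost when IL4 replicate 2, Compound A replicate 1 or Compound A replicate 2 was left out (adjusted p = 0.064 to 0.198), the second without any one of its 6 libraries (adjusted p = 0.0644 to 0.24). TPP1 with ALOX15 siRNA had 141.6, 136 and 131.7 CPM, also above the control siRNA libraries, a change of 0.14 that did not pass (adjusted p = 0.443).

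The other 9 hydrolases, GAA, GUSB, HEXA, NEU1, MANBA, NAGLU, ARSA, ARSB and LIPA, were called in no comparison by edgeR's joint fit, and neither were the cofactors PSAP and GRN. Some passed under an alternative. ARSA did without IL4 replicate 3 for IL4 against untreated (0.42, adjusted p = 0.0295). Its change there was 0.097 without IL4 replicate 1 (adjusted p = 0.686) and 0.045 with the GC correction (adjusted p = 0.794). GUSB, ARSB and GRN passed lower with the GC correction for control siRNA against untreated (adjusted p = 0.0169, 0.0201 and 0.00622). PSAP encodes the precursor of the saposins, which present lipids to hydrolases, and its log2 change was 0.10 with Compound A against IL4 (95% interval 0.00792 to 0.194), and it passed with the GC correction (0.16, adjusted p = 0.0031). GRN, the progranulin precursor of granulins, had -0.30 in the same comparison (95% interval -0.55 to -0.0432, adjusted p = 0.104). The GRN change was -0.098 without IL4 replicate 1 (adjusted p = 0.505) and -0.40 without IL4 replicate 3, where it passed (adjusted p = 0.026).

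**Figure D3:**
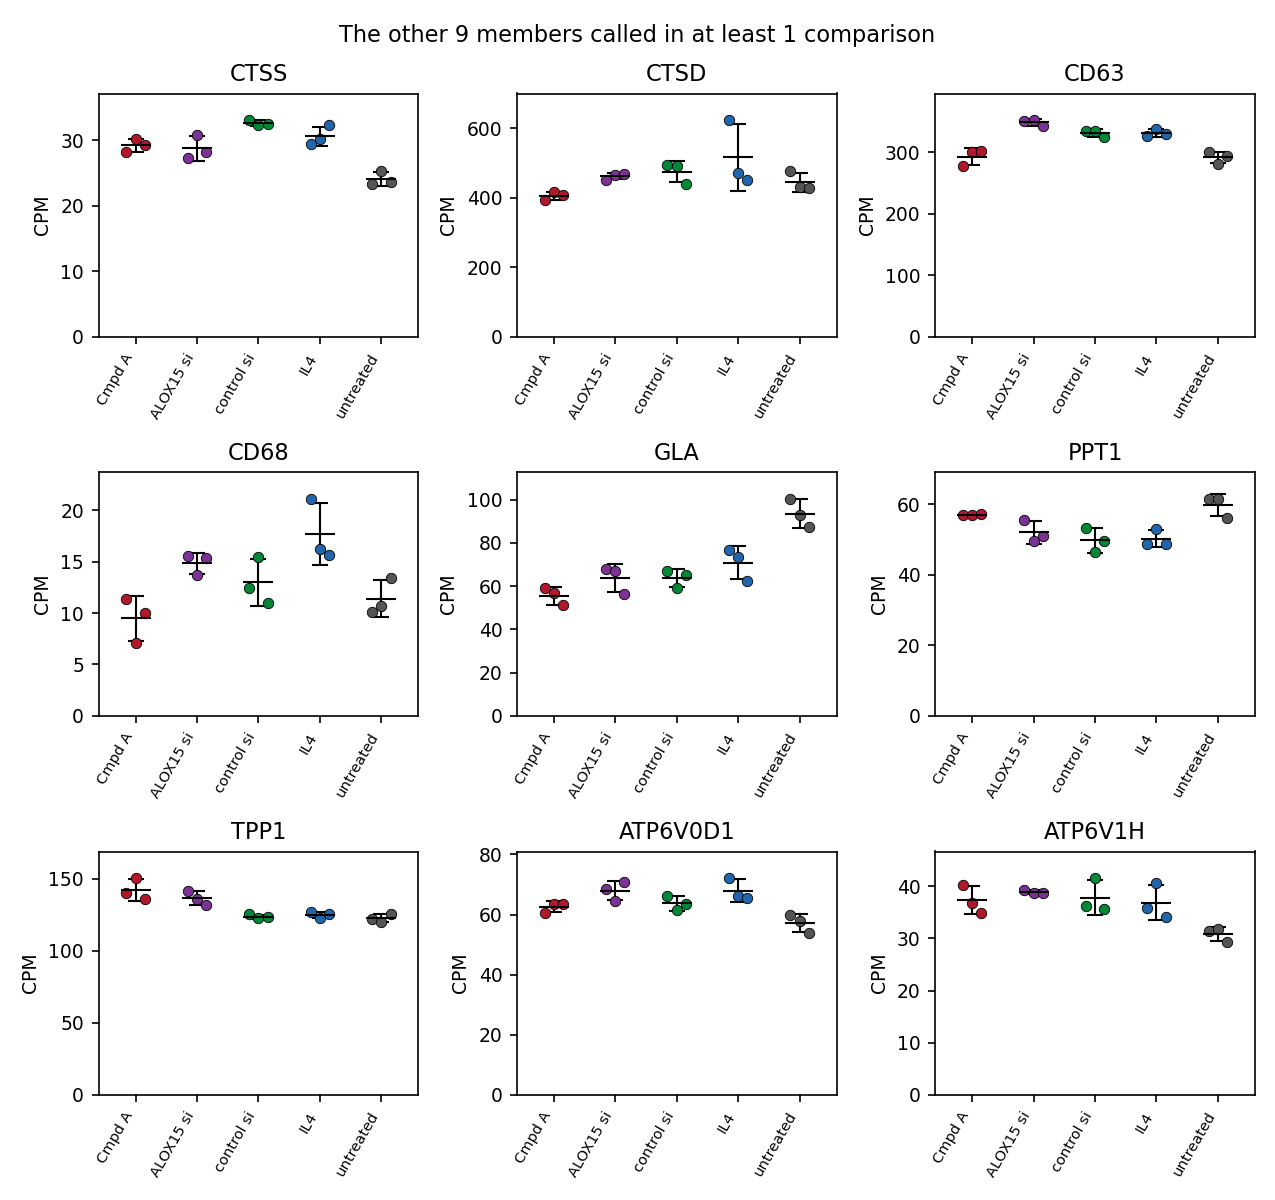
Level in CPM (vertical axes, each from 0) of the 9 called members other than CTSL in the 5 groups; points are libraries, bars the mean and SD of 3. In the CD68 panel the Compound A libraries lie at 7.113 to 11.41, and in the CTSD panel 1 IL4 library, at 625.1, sits apart from the rest.

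Of the 6 membrane proteins, CD63 and CD68 rose with IL4 alone and fell when Compound A was added. CD63 is a tetraspanin of late endosomes, lysosomes and exosomes (chromosome 12, 55723535 to 55730041). CD63 had 278, 299.7 and 301.7 CPM with Compound A and 334.9, 334.5 and 324.1 CPM with control siRNA. It had 326.6, 337.9 and 329.7 CPM with IL4 alone, against 300.2, 281.3 and 293.6 CPM untreated. The Compound A libraries thus spanned the untreated range and lay below every other IL4-treated library, including 350.3, 353.2 and 342.9 CPM with ALOX15 siRNA.

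The CD63 rise was 0.18 on the log2 scale with IL4 alone (SE 0.0502, adjusted p = 0.0111) and 0.18 with control siRNA (adjusted p = 0.0129). It was lost in the GC correction for IL4 alone (0.11, adjusted p = 0.0618) and without control siRNA replicate 2 for control siRNA (adjusted p = 0.0504). The fall with Compound A was 0.18 against IL4 alone (SE 0.0502, adjusted p = 0.0235) and 0.18 against control siRNA (SE 0.0504, adjusted p = 0.0448). Leaving out IL4 replicate 2 or Compound A replicate 1 ended the first call (adjusted p = 0.0537 to 0.084), the second without any one of its 6 libraries (adjusted p = 0.0738 to 0.171). The Compound A effect on CD63 minus the ALOX15 siRNA effect was -0.25 (adjusted p = 0.043). It was lost when any library of the 4 groups was left out, except IL4 replicate 1 or 3 (adjusted p = 0.0616 to 0.103).

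CD68 is a heavily glycosylated lysosomal membrane protein best known as a macrophage marker (chromosome 17, 7579638 to 7582111). CD68 had 11.41, 7.113 and 9.971 CPM with Compound A, against 21.15, 16.25 and 15.67 CPM with IL4 alone. Untreated cells had 10.13, 10.69 and 13.45 CPM, all below the IL4 libraries. The rise with IL4 alone was 1.57-fold (log2 0.65, SE 0.166, adjusted p = 0.00732), and the fall with Compound A was 0.91 on the log2 scale (SE 0.173, adjusted p = 0.00198).

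No alternative ended either of these CD68 calls, and without IL4 replicate 1 they were 0.50 (adjusted p = 0.0241) and -0.76 (adjusted p = 0.00287). Control siRNA libraries had 12.45, 15.5 and 10.99 CPM and overlapped the untreated ones, with a change of 0.20 that did not pass (95% interval -0.167 to 0.566, adjusted p = 0.479). Against control siRNA, Compound A gave -0.46, which did not pass either (95% interval -0.836 to -0.0767, adjusted p = 0.164). ALOX15 siRNA libraries had 15.52, 13.67 and 15.38 CPM. The Compound A effect lay below the ALOX15 siRNA effect by a log2 difference of -1.11 (SE 0.245, adjusted p = 0.0103).

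Marker levels of other cell types were read beside CD68 and CTSS. The 11 macrophage and monocyte genes summed to 1.17 to 2.57 CPM with Compound A, 2.18 to 3.23 CPM with ALOX15 siRNA, 2.32 to 4.28 CPM with control siRNA, 1.84 to 3.92 CPM with IL4 alone and 1.54 to 2.54 CPM untreated, and PTPRC and CSF1R were at 0 throughout. The 8 fibroblast genes summed to 9.98 to 14 CPM with Compound A, 19.0 to 22.4 CPM with ALOX15 siRNA, 17.9 to 21.1 CPM with control siRNA, 20.0 to 28.9 CPM with IL4 alone and 10.4 to 13.5 CPM untreated. These fibroblast sums were thus higher in the IL4-treated groups other than Compound A, but the genes did not move as a set. With IL4 alone against untreated, 1 of the 4 tested passed, and their log2 changes ran from -0.706 to 1.44. With Compound A against IL4, 2 of the 4 passed, both lower, with changes of -2.02 to -0.201. Of all genes tested, 22.9% and 14.4% passed in these comparisons. COL1A2 was at 0 in all groups. Of the 11 macrophage and monocyte genes, 1 passed the filter. It was called higher with control siRNA than untreated (log2 1.37), where 9.93% of all genes tested passed higher. Its log2 changes were 1.11 with IL4 alone, and with Compound A -1.22 against IL4 and -1.49 against control siRNA. None of those was called, though each had an unadjusted p under 0.05 in edgeR. ALOX15 siRNA gave -0.287, also not called. The part of these marker genes in the CD68 result was not tested.

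The membrane proteins LAMP1, LAMP2, SCARB2 and MCOLN1 were called in no comparison by edgeR's joint fit. LAMP1, the other main wall glycoprotein, passed as lower with IL4 alone than untreated with the GC correction (-0.20, adjusted p = 0.00401). LAMP2, a main glycoprotein of the lysosomal wall that serves in chaperone-mediated autophagy, had 218, 247.4 and 231.9 CPM with ALOX15 siRNA, against 201.2, 188.6 and 204.5 CPM with control siRNA. The groups did not overlap, but the log2 change of 0.23 did not pass (95% interval 0.0406 to 0.419, adjusted p = 0.401). LAMP2 did pass there with a fit of those groups alone (adjusted p = 0.0105) and with the GC correction (adjusted p = 0.019). With Compound A, its 222.9, 224.8 and 223.9 CPM lay above the control siRNA libraries, and that change of 0.18 passed in a fit of those groups alone (adjusted p = 0.0168). Without IL4 replicate 1, which held 155.8 CPM against 213.9 and 218.9 CPM in its mates, LAMP2 passed as higher with IL4 than untreated (0.20, adjusted p = 0.0102). MCOLN1, the mucolipin calcium channel, had -0.20 with ALOX15 siRNA and did not pass.

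Of the 6 proton pump subunits, 2 rose with IL4 alone. ATP6V0D1, a subunit of the membrane sector (chromosome 16, 67438019 to 67481157), had 72.32, 66.06 and 65.55 CPM with IL4 alone, against 59.78, 57.86 and 53.79 CPM untreated. The groups did not overlap, and the log2 change was 0.25 (SE 0.0692, adjusted p = 0.0136). With the GC correction it was 0.14 and did not pass (adjusted p = 0.105). With control siRNA, ATP6V0D1 had 66.14, 61.36 and 63.64 CPM and did not pass against untreated (0.15, adjusted p = 0.141).

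ATP6V1H is a regulatory subunit of the cytosolic sector of the pump. It had 36.18, 41.68 and 35.68 CPM with control siRNA and 35.75, 40.63 and 34.21 CPM with IL4 alone, against 31.37, 31.74 and 29.29 CPM untreated. It rose by 0.29 with control siRNA (SE 0.0903, adjusted p = 0.0269) and by 0.26 with IL4 alone (SE 0.0895, adjusted p = 0.0446). The first call was lost without untreated replicate 3 or control siRNA replicate 2 (adjusted p = 0.0718 to 0.158), the second without any untreated library or IL4 replicate 2 (adjusted p = 0.0518 to 0.144). No pump subunit passed with Compound A or ALOX15 siRNA. In the Compound A comparison with IL4 the log2 changes of the 6 ran from -0.12 for ATP6V0D1 to 0.13 for ATP6V1A.

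The transcription factors TFEB and TFE3 passed in no comparison by edgeR's joint fit. TFE3 had 130, 137.7 and 129.5 CPM with Compound A, against 164.4, 141.2 and 139.7 CPM with IL4 alone, a change of -0.16 (95% interval -0.307 to -0.021, adjusted p = 0.11). It was -0.083 without IL4 replicate 1 (adjusted p = 0.457) and passed without IL4 replicate 3 (adjusted p = 0.0499). TFEB was measured on few reads, with 15, 12 and 10 counts with Compound A against 35, 24 and 17 with IL4 alone. These groups did not overlap, and the log2 change of -1.15 missed the threshold (95% interval -1.98 to -0.315, adjusted p = 0.0592). Without IL4 replicate 1 it was -0.82 (adjusted p = 0.224), and without IL4 replicate 3 it was -1.38 and passed (adjusted p = 0.0198). The Compound A effect on TFEB minus the ALOX15 siRNA effect was -1.74 (adjusted p = 0.0905). It passed with the GC correction (adjusted p = 0.0492), without IL4 replicate 3 (adjusted p = 0.0356) and without control siRNA replicate 3 (adjusted p = 0.045). The 95% interval spans changes from slight to large, so at this depth the size of the TFEB change is poorly known.

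IL4 replicate 1 differed from its mates by transcript composition. On the second principal component it lay at 34.4, and its log2 deviation from the mean of all libraries was 0.626 higher at the 90th than at the 10th percentile of transcript GC content, where the other 14 libraries had -0.22 to 0.191. Among the members, its log2 ratio to the mean of its mates ran from -0.474 for LAMP2, whose transcript is 39.5% GC, to 0.832 for TFEB, at 63.1% GC. CTSL, at 50.3% GC, had -0.0688. Members of high GC content such as CTSD, TFEB and GRN were higher in that library and those of low GC content lower. Without it, 9 of 36 members passed for IL4 against untreated, 7 higher and 2 lower, and 7 passed for Compound A against IL4, 2 higher and 5 lower. With all libraries these counts were 8 and 6. The share of all genes that passed without that library is not given here, so these counts have no background beside them.

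**Figure D4:**
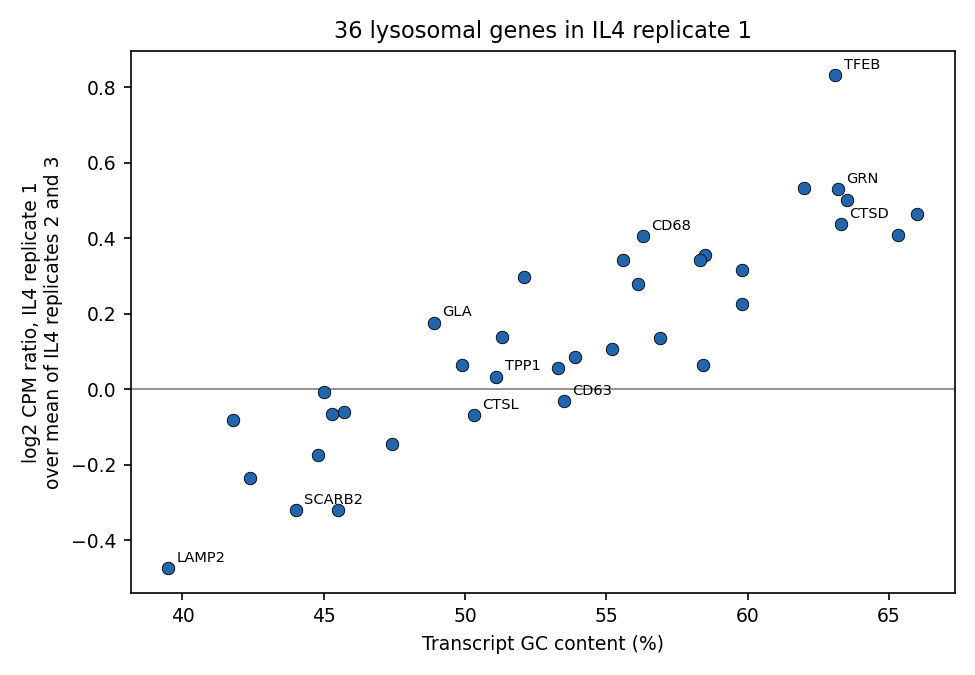
For each of the 36 genes, transcript GC content in percent (horizontal axis) against the log2 ratio of its level in IL4 replicate 1 to the mean of IL4 replicates 2 and 3 (vertical axis). LAMP2 is lowest at -0.474, TFEB highest at 0.832, and CTSL lies near 0 at -0.0688.

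The promoter windows of the members were searched for the core of the CLEAR motif. RefSeq windows from 250 bases before to 50 after the start were found for 25 of the 36 members, 37 windows in all. PSAP, CTSB, LAMP2, MANBA, ATP6V1A, HEXA, ARSA, CTSS, ATP6V1B2, ATP6V1H and NAGLU had no entry. CACGTG, which reads the same on both strands, was in a window of 9 of the 25 members (36%), against 8.77% of 27305 gene symbols. The CD63 match is in a window at 55728960 to 55729259, inside the gene's span of 55723535 to 55730041 and not at its outer end. TCACGTG on either strand was in 8 members (32%), against 4.49% of symbols, and TCACGTGA was in 5 (20%), against 1.18%; each longer motif contains the shorter. The STAT palindrome named above was in the window of LIPA alone (4%), against 7.8% of symbols. The GC box GGGCGG was in 20 members (80%), against 48.3% of symbols, and CCAAT was in 9 (36%), against 39.7%. The member windows thus differed from those of all symbols in more than CACGTG. That motif was searched for because it is known from lysosomal genes, so its higher share here is not an independent result.

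The stretches around CACGTG are shown for 7 of the 8 members that hold TCACGTG, to show how single and repeated copies are arranged, with CACGTG in capitals. CTSD, ATP6V0D1 and NEU1 are on the minus strand, at chr11:1763957-1763986, chr16:67481199-67481228 and chr6:31862930-31862959. CTSA, GAA, MCOLN1 and LAMP1 are on the plus strand, at chr20:45891281-45891327, chr17:80101493-80101567, chr19:7522571-7522623 and chr13:113297035-113297114, all from RefSeq on GRCh38.p14.
CTSD: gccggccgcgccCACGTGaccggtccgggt
ATP6V0D1: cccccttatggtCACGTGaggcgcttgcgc
NEU1: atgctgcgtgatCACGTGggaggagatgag
CTSA: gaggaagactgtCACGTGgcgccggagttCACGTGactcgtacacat
GAA: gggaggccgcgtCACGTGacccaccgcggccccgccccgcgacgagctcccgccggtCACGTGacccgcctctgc
MCOLN1: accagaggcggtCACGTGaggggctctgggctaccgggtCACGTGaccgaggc
LAMP1: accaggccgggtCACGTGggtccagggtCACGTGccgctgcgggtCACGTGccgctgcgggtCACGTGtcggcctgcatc
The LAMP1 stretch holds 4 of the 6 copies in its window, and CTSA, GAA and MCOLN1 hold 2 copies each.

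Members with the motif and members without it were set side by side. With Compound A against IL4, 2 of the 9 members with CACGTG passed, both lower (CTSD and CD63), with a median log2 change of -0.177. CD63 holds the motif only in a window that lies inside its gene's span. Of the 16 members with a window but no CACGTG, 2 passed higher and 2 lower, with a median of -0.154. Leaving out IL4 replicate 1 gave medians of -0.0733 for the 9 and -0.0776 for the 16. With IL4 alone against untreated, the 9 had a median of 0.184 and a range of -0.116 to 0.269, with CD63 and ATP6V0D1 called higher, and the 16 had a median of 0.0537. These medians were 0.0498 and 0.0117 without IL4 replicate 1, and with the GC correction 0.00977 and 0.00402. With ALOX15 siRNA against control siRNA the medians were -0.0417 for the 9 and 0.0224 for the 16. CTSL, without CACGTG in its window, lay outside the range of the 9 members with the motif in each comparison in which it was called.

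**Figure D5:**
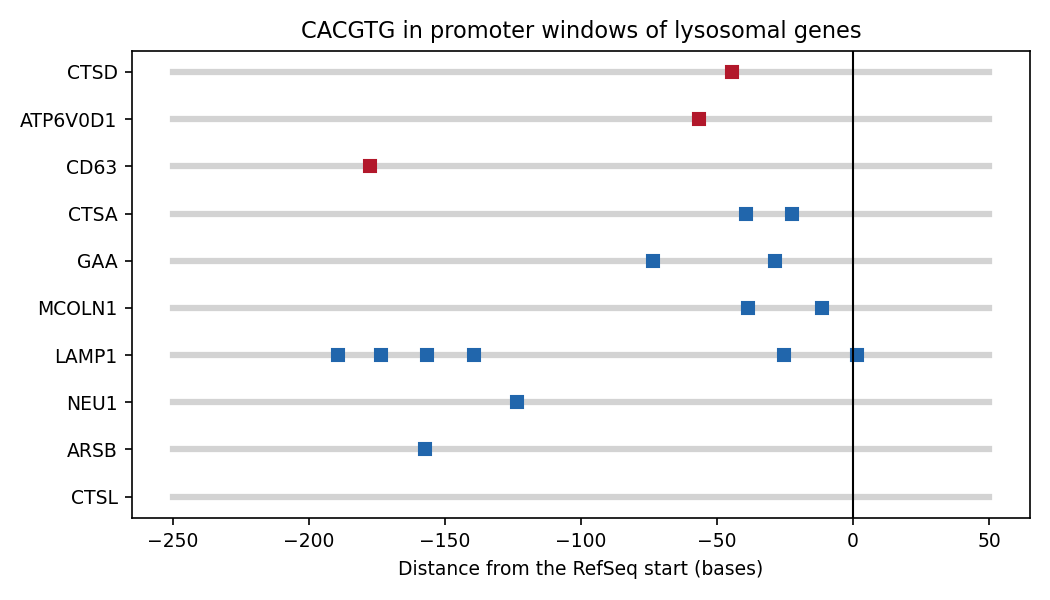
Position of each CACGTG (squares) in the window from 250 bases before to 50 after the RefSeq start (horizontal axis, in bases; start at 0) of the 9 members that hold it, with CTSL below. Red squares mark members called in at least 1 comparison (CTSD, ATP6V0D1 and CD63) and blue squares members called in none. LAMP1 holds 6 copies and CTSL none. For CD63 the start used lies inside the gene's span.

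Other lysosomal genes, taken from lists that were not part of the 36, gave a wider view. Of 33 other hydrolases and activators tested, 8 passed higher and 4 lower with IL4 alone against untreated (36.4%, against 22.9% of all genes tested). Without IL4 replicate 1, 6 passed higher and 2 lower. CTSO, a little-studied cysteine cathepsin, rose to 5.08 CPM with IL4, against 2.36 CPM untreated (log2 1.13, SE 0.262, adjusted p = 0.00338). CTSV, the close relative of CTSL, fell to 3.62 ± 0.991 CPM, against 6.69 ± 0.748 CPM untreated (log2 -0.89, SE 0.245, adjusted p = 0.0114). SMPD1, the acid sphingomyelinase, rose by 0.79 (SE 0.145, adjusted p = 0.000387). With Compound A against IL4, SMPD1 fell by 0.52 (adjusted p = 0.0196), and GALC, the galactocerebrosidase, rose by 0.32 (adjusted p = 0.0103). With control siRNA against untreated, 8 of the 33 passed higher and 2 lower (30.3%, against 19.3% of all genes tested). CTSV was among the lower (-0.99) and CTSO and SMPD1 among the higher (0.81 and 0.68).

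Membrane, pump and sorting genes outside the 36 also held some calls. Of 22 other membrane proteins, 1 (4.55%) passed with IL4 alone, where 22.9% of all genes tested passed. It was SLC38A9, the lysosomal arginine sensor, at 81.1 CPM against 51.2 CPM untreated (log2 0.67, adjusted p = 2.97e-05). With Compound A against IL4, 2 of these 22 passed higher and 2 lower (18.2%, against 14.4% of all genes tested). SLC29A3 led those that passed (-0.47, adjusted p = 0.0221), but did not pass without IL4 replicate 1 (adjusted p = 0.0841). NPC1, the lysosomal cholesterol exporter, rose by 0.34 (adjusted p = 0.00445). Of 14 other V-ATPase subunits tested, 3 (21.4%) passed with IL4 alone, all higher, near the 22.9% of all genes tested. TCIRG1, a membrane-sector subunit best known from osteoclasts, led with 0.60 (adjusted p = 0.000102). With Compound A against IL4, 2 passed higher, ATP6V1C1 (0.30) and ATP6V1D (0.24), and TCIRG1 passed lower (-0.31), 21.4% against 14.4% of all genes tested. All 3 missed the threshold without IL4 replicate 1 (adjusted p = 0.0576, 0.0865 and 0.172). Of 17 sorting genes, 2 (11.8%) passed with IL4 alone, against 22.9% of all genes tested. GGA2, an adaptor that carries hydrolases from the Golgi, rose to 107.5 ± 5.70 CPM with IL4, against 55.96 ± 6.80 CPM untreated (log2 0.95, SE 0.0763, adjusted p = 8.95e-09). SORT1, the sorting receptor sortilin, fell by 0.40 (adjusted p = 0.000313). In the hydrolase, membrane, pump and sorting lists together, 86 genes were tested. Against control siRNA, 0 of the 86 passed with Compound A, by edgeR or DESeq2, where 5.28% of all genes tested passed edgeR's test. With ALOX15 siRNA 0 passed by either tool, where 0.696% of all genes passed edgeR's test. In edgeR, 18 of the 86 had an unadjusted p under 0.05 with Compound A and 7 with ALOX15 siRNA. Of all genes tested, 20% and 8.91% did.

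Some genes that sense nutrients at the lysosome rose with Compound A. Of 23 genes of the TFEB family and of nutrient sensing tested, 5 passed against IL4 (4 without IL4 replicate 1) and 4 against control siRNA, all higher. Of all genes tested, 6.35% passed higher against IL4 and 1.86% against control siRNA. With IL4 alone against untreated, 0 of the 23 passed edgeR's test, with 1 at an unadjusted p under 0.05 and 0 by DESeq2, and 1 passed once IL4 replicate 1 was left out. With control siRNA against untreated, 0 passed, with 3 at an unadjusted p under 0.05 and 0 by DESeq2. In those comparisons 22.9% and 19.3% of all genes tested passed edgeR's test, and 34.8% and 30.8% had an unadjusted p under 0.05. FLCN, the folliculin that acts on the Rag GTPases, rose to 48.65 ± 1.02 CPM with Compound A, against 31.53 ± 4.22 CPM with IL4 alone, a log2 change of 0.63 (SE 0.094, adjusted p = 0.000265). RRAGC, a Rag GTPase, and TSC1, part of the complex that restrains mTORC1, each rose by 0.48 (adjusted p = 0.0012 and 0.000372). FNIP1, the partner of FLCN, rose by 0.43 (adjusted p = 0.00183). Against control siRNA, FLCN rose by 0.48 (adjusted p = 0.00444). With ALOX15 siRNA, 1 of the 23 passed, where 0.696% of all genes tested did. It was RRAGD, another Rag GTPase, with 8.714, 8.797 and 9.565 CPM, against 4.342, 5.888 and 4.566 CPM with control siRNA (log2 0.88, SE 0.166, adjusted p = 0.0115). The direct comparison of both effects put Compound A above ALOX15 siRNA for FLCN (0.65, adjusted p = 0.00697) and TSC1 (0.38, adjusted p = 0.043). Of all genes tested, 1.94% passed upward there. DESeq2 called 1 of the 23 genes in that comparison.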

How the data were processed

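The data are RNA-seq of 15 A549 libraries, 3 in each of 5 groups. The authors deposited 1 table of estimated counts per gene (RSEM expected counts), not scaled between libraries; per the submitters' processing notes, Bowtie2 2.1.0, RSEM 1.2.15 and hg38 were used. Annotation, strand setting and read filters are not given in the sources used here, so reads of overlapping genes could not be separated. Estimated counts of all 36 members had no fractional part in any library except GUSB in 1.

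In edgeR 4.0.16 (R 4.3.3), counts were rounded, filtered with filterByExpr (12795 genes kept) and scaled by TMM. All 15 libraries entered 1 robust quasi-likelihood model with a term for each group. P-values had Benjamini-Hochberg adjustment across every gene tested, with a threshold of 0.05, and every adjusted p in the text is from this test unless another fit is named. The SE is the log2 change divided by the square root of F, and 95% intervals follow from it. The common biological coefficient of variation was 0.0731. Fold changes between the groups are fitted values, and levels are mean CPM with SD. The members and the other lists were chosen with earlier results of these data known. Members that passed without overlap between groups got their values in every library, up to 6 per comparison, and other lists up to 3 genes; LAMP2, TFEB, TFE3, CTSC, GRN and PSAP were singled out after their values were seen. Alternatives were RLE scaling, no filter, DESeq2 1.42.0, fits restricted to the groups compared, the replicate number as a block, and leaving out each library. An offset that removes the GC content trend of every library (loess span 0.3, GENCODE transcripts) and unrounded counts were added after seeing the data. Promoter windows and coordinates were RefSeq's for GRCh38.p14, matched by symbol. 1 gene of the other lists is not reported here. The edgeR model was also run on simulated counts with known changes, drawn with the spread it had fitted. Those counts had no GC content trend and no outlying library, so they cannot show how the test behaves with IL4 replicate 1.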

Additional observations from a re-analysis of the deposited data

How the results depend on the processing

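CTSL kept its direction and passed in all 5 comparisons in which it was called, under every setting run, and no member's call reversed under any. Of the 26 calls of members, 12 held under every setting. RLE scaling, DESeq2 and unrounded counts moved no count of members by over 1.5 times. Same-numbered libraries of different groups had correlations of -0.128 to 0.286 in their deviations from the group means, 8 of 30 above 0.1. Differently numbered ones had -0.237 to 0.232, 7 of 60 above 0.1. The ranges overlap, so these values do not settle whether replicate numbers pair the libraries. With a replicate block, 9 members passed for IL4 against untreated, 6 for control siRNA against untreated, 6 for Compound A against IL4, 3 against control siRNA, 0 for ALOX15 siRNA, 0 for control siRNA against IL4 and 3 for the difference of effects. Counts over all genes with this block are not given here. With no filter, 1 member passed for Compound A against control siRNA. Fits of the compared groups only gave 4 members for IL4 against untreated (1466 genes in all, against 2925 in the joint fit), 2 for Compound A against IL4 (397 against 1846 genes), 5 for Compound A against control siRNA (1768 against 675) and 1, LAMP2, for ALOX15 siRNA (325 against 89). The GC correction gave 10 members for control siRNA against untreated, 5 for Compound A against control siRNA (1199 genes), 1 for ALOX15 siRNA (275 genes) and 5 for the difference (1257 genes against 658). The cause of these shifts was not tested. Leaving out 1 library at a time gave 6 to 12 members for IL4 against untreated, 3 to 6 for control siRNA against untreated, 3 to 10 for Compound A against IL4, 1 for Compound A against control siRNA, 0 for ALOX15 siRNA, 0 for control siRNA against IL4 and 2 to 6 for the difference. All genes called then ran from 769 to 3016 for Compound A against IL4, 220 to 538 against control siRNA, 35 to 52 for ALOX15 siRNA and 324 to 1153 for the difference. Ranges over all genes for the other comparisons are not given here. Most member changes other than CTSL were under 0.5 on the log2 scale, and with 3 libraries a group and totals of 6407936 to 11031246 many such calls lie near the threshold. TFEB, with 6 to 38 counts per library, was the least precisely measured member.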

Other observations

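Inhibitors of the cathepsins, which keep these proteases in check outside the lysosome, moved with IL4 as well. Of 11 such genes in the table, 5 passed the filter, and 3 of these (60%) were higher with IL4 alone than in untreated cells (edgeR). Of all genes tested, 22.9% passed there, 11.2% higher. CST1, cystatin SN, had 475.4, 372.4 and 342.8 CPM with IL4 alone, against 40.87, 36.48 and 39.6 CPM untreated, a 10.2-fold rise (log2 3.35, SE 0.102, adjusted p = 8.1e-15). CST1 had 237.5, 221.9 and 225 CPM with Compound A, below every IL4 library (log2 -0.80, adjusted p = 2.52e-05). It had 213.2, 224 and 203.3 CPM with ALOX15 siRNA, against 371, 387.2 and 340.9 CPM with control siRNA (log2 -0.78, SE 0.0899, adjusted p = 0.000166). CST1 was thus lower with Compound A and with ALOX15 siRNA than in the IL4 libraries each was set against, while CTSL was higher with Compound A and not called with ALOX15 siRNA. Without IL4 replicate 1 the CST1 changes were 3.20 with IL4 and -0.65 with Compound A. Counts of CST1 had a fractional part in 14 of 15 libraries, as arises where reads map to more than 1 place, so its level is uncertain; which genes share them was not tested. CST3, cystatin C, rose by 0.43 with IL4 (adjusted p = 0.0135) and fell by 0.52 with Compound A (adjusted p = 0.00802). Without IL4 replicate 1 the CST3 changes were 0.23 (adjusted p = 0.0231) and -0.32 (adjusted p = 0.00416).

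Autophagy genes, whose products deliver cell contents to the lysosome, were read beside the share of all genes tested that passed. Of 22 tested, 5 passed higher and 1 lower with IL4 alone against untreated (27.3%, against 22.9% of all genes), 6 higher and 1 lower with control siRNA against untreated (31.8%, against 19.3%), and 4 higher and 1 lower with Compound A against IL4 (22.7%, against 14.4%). WIPI1, a phosphoinositide-binding protein of early autophagosomes, rose by 0.60 with IL4 (adjusted p = 0.000138), and ULK1, the initiating kinase, by 0.59 (adjusted p = 0.000926). GABARAPL1, an ATG8-family protein of the autophagosome membrane, rose by 0.54 with Compound A against IL4 (adjusted p = 0.000443) and by 0.37 against control siRNA (adjusted p = 0.0154). Its change with Compound A exceeded that with ALOX15 siRNA by 0.71 (adjusted p = 0.00166). With ALOX15 siRNA against control siRNA, 0 of the 22 passed edgeR's test, with 0 at an unadjusted p under 0.05 and 0 by DESeq2. Of all genes tested, 0.696% passed edgeR's test there and 8.91% had an unadjusted p under 0.05.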
